A study of Homo sapiens with 3 samples.

Results

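The hexosamine pathway turns a sugar phosphate of glycolysis, together with glutamine, acetyl-CoA and UTP, into UDP-N-acetylglucosamine (UDP-GlcNAc). UDP-GlcNAc is the donor for N-glycans, glycosylphosphatidylinositol (GPI) anchors, heparan sulfate and hyaluronan, and for the single GlcNAc residues that O-GlcNAc transferase places on nuclear and cytoplasmic proteins. Cells can also bring GlcNAc freed from glycans back into the pathway, and a side branch turns UDP-GlcNAc towards sialic acid. The genes described here were all those of a list of 9 for this pathway and for O-GlcNAc cycling that had guides in the per-library count files. The rule uses only gene symbols. There were 7 such genes of 2978 targeted in all. They were GFPT1 and GFPT2 (the paralogous amidotransferases of the first, rate-limiting step), GNPNAT1 (which acetylates glucosamine-6-phosphate), PGM3 (which moves the phosphate from carbon 6 to carbon 1), UAP1 (the pyrophosphorylase that makes UDP-GlcNAc), NAGK (the kinase that salvages GlcNAc) and GNE (the epimerase and kinase that starts sialic acid synthesis). OGT, which adds O-GlcNAc to proteins, and MGEA5, which removes it, were not analysed here, so no value below concerns O-GlcNAc cycling itself.

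The measurements came from a pooled CRISPR knockout screen in MIA PaCa-2 cells, an established human line of pancreatic ductal adenocarcinoma. The cells carried a library of guide RNAs against metabolic genes, and each of 3 libraries counted the guides in one population: cells after 14 days with apilimod, a small molecule that blocks the lipid kinase PIKfyve, cells after 14 days with its solvent DMSO, and the initial population harvested untreated at day 0. The label gives apilimod at 200 nM, whereas a different concentration stands in the methods of the study, and the data cannot settle which was used. All 3 populations were transduced and selected, and each group had 1 library, so every test below compares these libraries over guides and not the conditions over cultures.

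The libraries held 25599416 counts with apilimod, 26276517 with DMSO and 24695476 in the initial population, and the median guide had 655, 663 and 651 counts. Each of the 7 genes had 10 guides. A guide was used where it had at least 100 counts in the initial population, which held for 65 of the 70. Its change was the log2 ratio of its share of a library to its share of the initial population, minus the median over the 487 usable control guides, which cut between genes. A value of 0 is therefore the change of the median control guide, and the gene score is the mean over guides. Control guides spread more widely with apilimod (SD 0.73, central 95% from −1.07 to 2.19) than with DMSO (SD 0.40, central 95% from −0.93 to 0.71). The SD of control guides was larger with apilimod at every initial count, at 1.30 with apilimod and 0.62 with DMSO for the 20 with 100 to 200 initial counts, and at 0.33 and 0.25 for the 164 with 1600 or more. Those 20 rare control guides also had a median change of 1.69 with apilimod and −0.20 with DMSO, whereas the 2209 gene-targeting guides in the same range had −0.02 and −0.16.

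Guides against 4 of the 7 genes were depleted with apilimod and against 3 with DMSO, and no gene of the pathway was called higher in either arm. PGM3 had the lowest score in both arms. With apilimod the order of the scores was PGM3 (−2.08), GFPT1 (−1.32), NAGK (−1.04), GNE (−0.64), GNPNAT1 (−0.44), UAP1 (−0.18) and GFPT2 (0.07). With DMSO it was PGM3 (−1.55), NAGK (−0.87), GFPT1 (−0.61), GNE (−0.45), GNPNAT1 (−0.24), UAP1 (−0.16) and GFPT2 (0.07). In either order, neighbouring genes differed by less than the larger of their SDs over guides. The test was an exact rank-sum test of a gene's guides against the control guides, 2-sided, with Benjamini-Hochberg adjustment over the 2969 genes scored and a threshold of 0.05. By this rule 29.0% of all genes were called lower with apilimod and 0.236% higher, and with DMSO 18.9% were called lower and 0.842% higher. The 4 and 3 calls among the 7 genes were 57.1% and 42.9%, and with so few genes, chosen with earlier results known, the shares are a description only. The median score of the 7 genes was −0.64 with apilimod and −0.45 with DMSO, against −0.26 and −0.17 over all genes. Both arms were set against the same initial population, so the error of that library enters both scores of a gene.

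**Figure D1:**
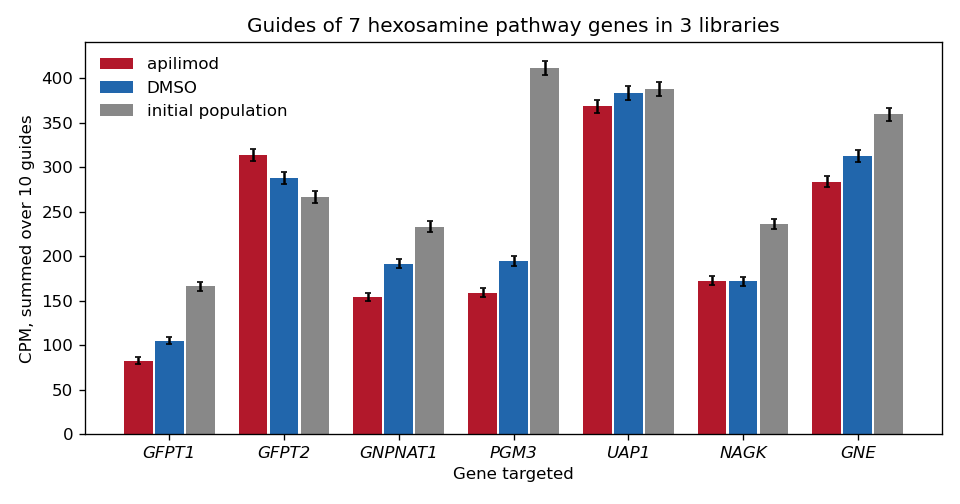
CPM (counts scaled to a common library total; y axis, linear from 0), summed over all 10 guides of each gene (x axis), in the apilimod, DMSO and initial population libraries. Error bars are exact Poisson 95% intervals and cover counting error only. PGM3 fell the furthest, to 158.7 with apilimod and 194.5 with DMSO against 411.2 in the initial population, while UAP1 stayed between 368.3 and 387.5 in all 3 libraries.

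GFPT1, on chromosome 2 (69319780 to 69387227, GRCh38.p14), encodes the amidotransferase that commits fructose-6-phosphate to the pathway. Its 10 guides summed to 2116 counts with apilimod (exact Poisson 95% interval 2026.8 to 2208.1), 2755 with DMSO (2653.1 to 2859.8) and 4101 in the initial population (3976.4 to 4228.5). Each such interval covers counting error only, since reads without molecular identifiers are copies made by PCR. With apilimod all 8 usable guides lay below the control median, between −3.03 and −0.26. With DMSO 5 of the 8 did, and the guides were spread on both sides of it: sgGFPT1_2, sgGFPT1_10 and sgGFPT1_7 changed by −1.80, −1.34 and −1.32, and sgGFPT1_9, sgGFPT1_6 and sgGFPT1_5 by 0.08, 0.14 and 0.28. The score was −1.32 ± 0.92 with apilimod (SD over 8 guides, exact rank-sum test, adjusted p = 2.09e-05), and GFPT1 was called lower. It was −0.61 ± 0.79 with DMSO (adjusted p = 0.134 by the same exact test), which was not called. The DMSO value rests on the minimum count: with a minimum of 30 it was −0.74 over 10 guides (exact test, adjusted p = 0.023) and with a minimum of 300 it was −0.90 over 6 guides (exact test, adjusted p = 0.00895). The 2 guides left out for low counts went apart, sgGFPT1_3 with 250 counts with apilimod, 37 with DMSO and 62 at the start, and sgGFPT1_4 with 0, 23 and 61.

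GFPT2, the paralogue that carries out the same reaction and is on chromosome 5 (180300698 to 180353336), showed no such loss. Its guides summed to 8019 counts with apilimod, 7559 with DMSO and 6582 in the initial population. The 9 usable guides ranged from −0.90 to 1.08 with apilimod and from −0.73 to 0.63 with DMSO, so all of them lay within the central 95% of the control guides in both arms. The scores were 0.07 ± 0.66 with apilimod (SD over 9 guides, exact rank-sum test, adjusted p = 0.894) and 0.07 ± 0.47 with DMSO (exact test, adjusted p = 0.526). The guides of GFPT1 and GFPT2 overlapped in range in both arms, and the difference between the 2 genes was not tested.

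GNPNAT1, on chromosome 14 (52775193 to 52791607), had 8 of 10 guides below the control median in each arm, yet neither score was called. Its guides summed to 3943 counts with apilimod, 5029 with DMSO and 5752 in the initial population. The score was −0.44 ± 1.06 with apilimod (SD over 10 guides, exact rank-sum test, adjusted p = 0.0578) and −0.24 ± 0.73 with DMSO (exact test, adjusted p = 0.126). The spread was set largely by 1 guide that went the other way in both arms: sgGNPNAT1_6 had 561 counts with apilimod, 427 with DMSO and 125 in the initial population, changes of 1.88 and 1.53. The 3 guides that fell furthest with apilimod, sgGNPNAT1_10, sgGNPNAT1_3 and sgGNPNAT1_9, changed by −1.76, −1.53 and −1.40 with apilimod and by −0.90, −0.75 and −0.39 with DMSO. An alternative left out the guide farthest from the median of every gene, which for GNPNAT1 was sgGNPNAT1_6. The scores were then −0.70 with apilimod (exact test, adjusted p = 0.0108) and −0.43 with DMSO (exact test, adjusted p = 0.0258). Both were then called, but every gene had lost 1 guide, so the adjusted p also depends on the other genes. A minimum of 300 initial counts, which left 7 guides, also gave calls, with −0.89 for apilimod and −0.44 for DMSO.

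PGM3, on chromosome 6 (83148705 to 83193900), is the mutase that makes GlcNAc-1-phosphate, and both the new and the salvage route pass through it. Its 10 guides held 4063 counts with apilimod (exact Poisson 95% interval 3939.0 to 4189.9), 5110 with DMSO (4970.8 to 5252.1) and 10156 in the initial population (9959.4 to 10355.5). Guide by guide, in the order 1 to 10, the counts were 211, 578, 306, 4, 462, 448, 832, 114, 87 and 1021 with apilimod. With DMSO they were 293, 1092, 375, 132, 1003, 410, 802, 28, 72 and 903. In the initial population they were 638, 714, 1939, 326, 1414, 470, 1545, 352, 375 and 2383. All 10 guides fell below the control median with apilimod and 9 of 10 with DMSO, the exception being sgPGM3_2 at 0.38. The size of the loss differed widely among guides, from −6.31 for sgPGM3_4 to −0.34 for sgPGM3_6 with apilimod and from −3.84 for sgPGM3_8 to 0.38 with DMSO. The score was −2.08 ± 1.67 with apilimod (SD over 10 guides, exact rank-sum test, adjusted p = 2.96e-09), the 67th lowest of 2969 genes. With DMSO it was −1.55 ± 1.22 (exact test, adjusted p = 1.64e-05), the 106th lowest. Without sgPGM3_4, the guide farthest from the median, the apilimod score was −1.61 (exact test, adjusted p = 4.44e-08, with every gene's farthest guide left out).

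UAP1, on chromosome 1 (162561531 to 162601240), carries out the step after PGM3, in which UDP-GlcNAc is made. Its guides changed little in sum, with 9428 counts with apilimod, 10076 with DMSO and 9570 in the initial population. In each arm 7 of 9 usable guides lay below the control median, but by small amounts, with medians of −0.26 with apilimod and −0.29 with DMSO. The score was −0.18 ± 0.73 with apilimod (SD over 9 guides, exact rank-sum test, adjusted p = 0.206) and −0.16 ± 0.28 with DMSO (exact test, adjusted p = 0.253). The rarest of the 9 guides, sgUAP1_5, stood apart with 491 counts with apilimod against 127 with DMSO and 144 in the initial population. Its change was 1.49 with apilimod and −0.41 with DMSO.

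NAGK, on chromosome 2 (71068296 to 71079808), phosphorylates free GlcNAc for reuse. Its guides summed to 4416 counts with apilimod, 4514 with DMSO and 5831 in the initial population, and the loss was uneven among guides. sgNAGK_4 changed by −2.62 with apilimod and −1.85 with DMSO, sgNAGK_6 by −2.02 and −1.98, and sgNAGK_3 by −1.74 and −2.03. By contrast sgNAGK_8 changed by −0.16 and 0.04, sgNAGK_10 by 0.04 and −0.26, and sgNAGK_5 by −0.35 and −0.57. The remaining usable guides differed between the arms, with sgNAGK_1 at −1.41 and −0.34, sgNAGK_9 at −0.84 and 0.10, and sgNAGK_2 at −0.29 and −0.91. Thus sgNAGK_4, sgNAGK_6 and sgNAGK_3 were the lowest guides in both arms. The score was −1.04 ± 0.94 with apilimod (SD over 9 guides, exact rank-sum test, adjusted p = 0.00117) and −0.87 ± 0.87 with DMSO (exact test, adjusted p = 0.00522), and NAGK was called lower in both.

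GNE, on chromosome 9 (36214441 to 36276978), showed a smaller and more even loss. Its guides summed to 7264 counts with apilimod, 8220 with DMSO and 8879 in the initial population. In each arm 9 of 10 guides lay below the control median, the exceptions being sgGNE_1 at 0.13 with apilimod and sgGNE_10 at 0.04 with DMSO. The score was −0.64 ± 0.52 with apilimod (SD over 10 guides, exact rank-sum test, adjusted p = 0.000681) and −0.45 ± 0.33 with DMSO (exact test, adjusted p = 0.00293). The calls of NAGK and GNE depended on the control guides as the yardstick. When the guides were ranked against all gene-targeting guides instead, NAGK had an adjusted p of 0.155 by the exact test with apilimod and 0.167 with DMSO, and GNE 0.287 and 0.309, while PGM3 was still called in both arms and GFPT1 with apilimod.

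**Figure D2:**
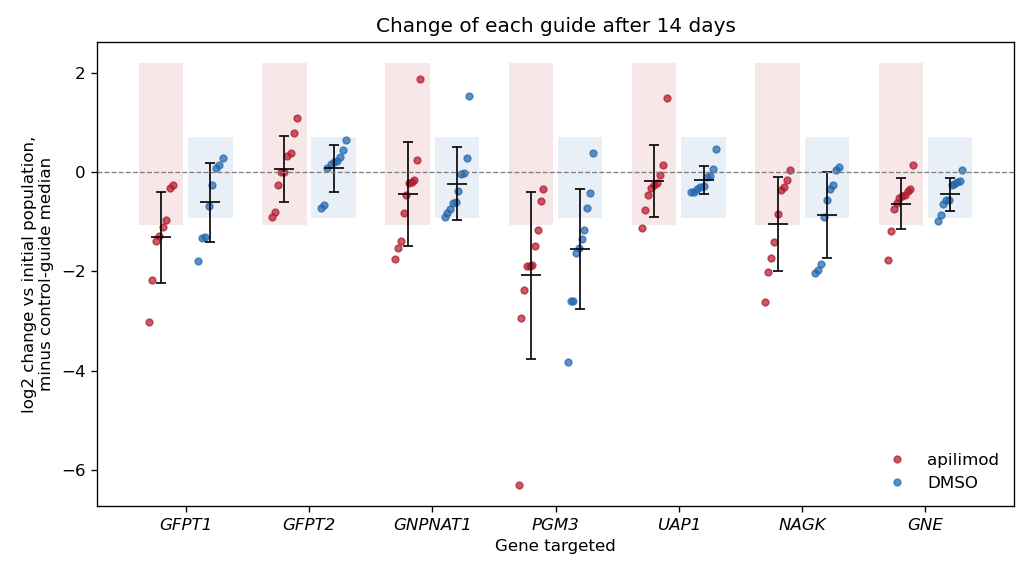
Change of each usable guide against the initial population (y axis, log2, minus the control-guide median) for the 7 genes (x axis), with apilimod left of DMSO. Each point is 1 guide, black bars are the mean and SD over guides, and shaded boxes hold the central 95% of control guides in that arm. All PGM3 and GFPT1 guides lie below 0 with apilimod, and GFPT2 guides stay inside the boxes in both arms.

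**Figure D3:**
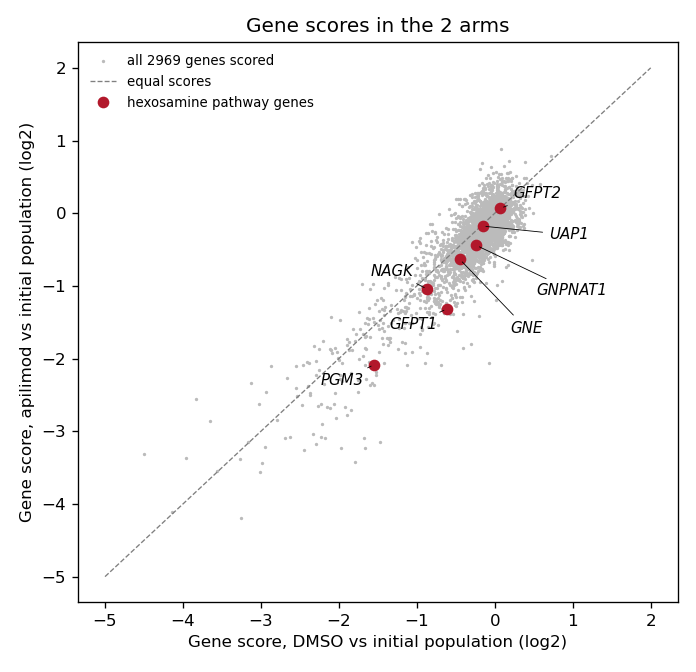
Gene score with apilimod (y axis, log2) against the score with DMSO (x axis, log2) for the 2969 genes scored (grey) and the 7 hexosamine pathway genes (red), with the dashed line where both are equal. PGM3 lies at −2.08 with apilimod and −1.55 with DMSO, and GFPT1 lies below the line, at −1.32 and −0.61.

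Set directly against DMSO, no gene of the pathway passed the test in either direction, against 0.573% of all genes called lower and 0.202% called higher. For this comparison each arm was first scaled so that the median of 28 nucleotide synthesis genes was −1, dividing the apilimod scores by 1.832 and the DMSO scores by 1.549, since these genes fell further with apilimod. GFPT1 came closest. Its guides had a mean log2 ratio of apilimod over DMSO of −0.70 ± 0.83 before scaling (SD over 8 guides), 6 of 8 lay below the control median after scaling, and its scaled difference, in SDs over genes (z), was −1.85, the 60th lowest of 2969. The exact rank-sum test gave p = 0.00384 and, after Benjamini-Hochberg adjustment, 0.178. Per guide, sgGFPT1_7 had 52 counts with apilimod and 167 with DMSO, sgGFPT1_6 had 105 and 243, sgGFPT1_9 had 294 and 592 and sgGFPT1_1 had 198 and 393. Before scaling the exception was sgGFPT1_10, with 433 counts with apilimod and 198 with DMSO and a log2 ratio of 1.08. The mildest of the negative ratios was −0.37, for sgGFPT1_2. These are unscaled values, whereas the count of 6 of 8 was taken after scaling. Without the scaling of the arms GFPT1 was called lower with apilimod (exact test, adjusted p = 0.0438), and over all 13 alternatives its z ranged from −2.18 to −1.69.

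PGM3 had a mean log2 ratio of −0.54 ± 1.72 (SD over 10 guides, exact rank-sum test, adjusted p = 0.989), and 1 guide carried it. sgPGM3_4 had 4 counts with apilimod and 132 with DMSO, a log2 ratio of −4.78, while sgPGM3_8 went the other way with 114 and 28 counts and a ratio of 1.94. The z of PGM3 was −0.713. It was −0.003 in an alternative that left out the farthest guide of every gene, which for PGM3 was sgPGM3_4. That alternative also reset the scaling of the arms and the spread over genes, so the change in z was not due to sgPGM3_4 alone. The 5 remaining genes had mean log2 ratios between −0.21 and −0.00, which was −0.21 ± 0.63 for GNPNAT1, −0.19 ± 0.55 for GNE, −0.18 ± 0.61 for NAGK, −0.02 ± 0.87 for UAP1 and −0.00 ± 0.68 for GFPT2, with exact adjusted p between 0.734 and 0.99. With 8 to 10 guides and 1 library in each arm, a difference smaller than the spread of the guides was not detectable, and these values do not show that the arms were equal.

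**Figure D4:**
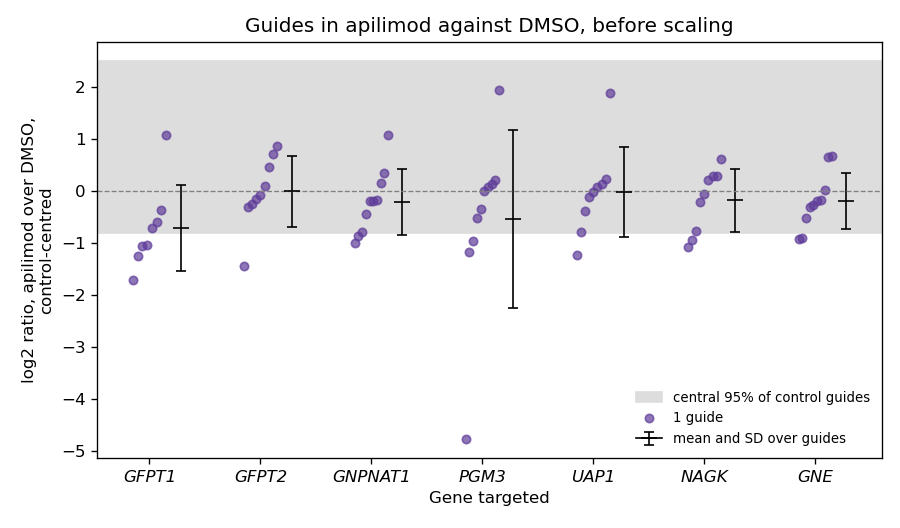
log2 ratio of apilimod over DMSO for each usable guide (points), before scaling and with the control-guide median of each arm subtracted (y axis), for the 7 genes (x axis). Black bars are the mean and SD over guides and the grey band holds the central 95% of control guides, from −0.81 to 2.50. GFPT1 has the lowest mean, −0.70, and sgPGM3_4 is the lowest guide at −4.78.

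Genes around the pathway were described from 6 lists, of which 67 of 70 genes were scored. With apilimod 26 were called lower and none higher, where 29.0% of all genes were called lower. With DMSO 18 were called lower and 1 higher, where 18.9% of all genes were called lower, and 2 were lower in apilimod against DMSO, where 0.573% of all genes were. Their median scores were −0.32 with apilimod and −0.17 with DMSO, against −0.26 and −0.17 over all genes. Among 11 genes of glucose, glutamine and uridine nucleotide metabolism next to the pathway, some of which draw on the same substrates, 7 were called lower with apilimod (29.0% of all genes) and 4 with DMSO (18.9% of all genes). Their median scores were −0.77 and −0.37. UMPS, which makes UMP, had −2.34 ± 1.67 with apilimod and −3.13 ± 2.51 with DMSO, and CTPS1, which makes CTP from UTP, had −1.54 ± 0.42 and −1.50 ± 0.74 (SD over 8 and 9 guides), each called lower in both arms. At the other end the glucose transporter SLC2A3 had 0.40 ± 0.56 with apilimod, which was not called, and 0.57 ± 0.40 with DMSO (SD over 10 guides, exact rank-sum test, adjusted p = 0.00023), which was called higher. GPI, the isomerase that makes fructose-6-phosphate, was the gene of this list called lower in apilimod against DMSO, with −0.91 ± 0.54 with apilimod, −0.28 ± 0.39 with DMSO and a log2 ratio of −0.63 ± 0.34 (SD over 10 guides, exact rank-sum test, adjusted p = 0.0277). It was named after its values were seen.

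Among genes that use UDP-GlcNAc, 16 of 34 scored were called lower with apilimod (29.0% of all genes) and 11 with DMSO (18.9% of all genes), with median scores of −0.37 and −0.25. The lowest were ALG14 and DPAGT1, whose products take part in placing the GlcNAc residues that begin the N-glycan precursor. ALG14 had −2.85 ± 2.93 with apilimod and −2.80 ± 3.45 with DMSO, and DPAGT1 had −2.22 ± 1.01 and −2.29 ± 1.40 (SD over 9 guides each). The highest were SLC35A3, a Golgi carrier of UDP-GlcNAc, with 0.57 ± 0.78 with apilimod and 0.19 ± 0.56 with DMSO, and EXT1, a heparan sulfate polymerase, with 0.33 ± 0.84 and 0.21 ± 0.49, none of them called.

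GNE was called lower in both arms, and none of the 4 genes of the branch that follows it was called in any comparison. NANS, the sialic acid synthase, had −0.44 ± 0.63 with apilimod and 0.16 ± 0.50 with DMSO, the phosphatase NANP had −0.01 ± 0.32 and 0.16 ± 0.27, CMAS, which activates sialic acid, had 0.16 ± 0.32 and 0.09 ± 0.26, and the Golgi carrier SLC35A1 had −0.12 ± 0.84 and −0.13 ± 0.60. The difference between GNE and these genes was not tested. Of the 5 genes that break hexosamines down or return them to the pathway, 1 was called lower with apilimod (29.0% of all genes) and 3 with DMSO (18.9% of all genes). AMDHD2, the deacetylase that acts on GlcNAc-6-phosphate, had −0.54 ± 0.72 with apilimod and −0.85 ± 0.81 with DMSO and was called in both. RENBP, which converts N-acetylmannosamine to GlcNAc, had −0.37 ± 0.56 and −0.46 ± 0.20 and the sialic acid lyase NPL −0.36 ± 0.83 and −0.55 ± 0.60, each called with DMSO. The deaminases GNPDA1 and GNPDA2 had −0.10 ± 0.29 and 0.07 ± 0.51 with apilimod and 0.10 ± 0.31 and 0.01 ± 0.48 with DMSO, none of them called.

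Of the 6 paralogues or relatives of pathway genes, UAP1L1, the relative of UAP1, was called lower with apilimod, at −0.53 ± 0.60 (SD over 10 guides, exact rank-sum test, adjusted p = 0.0155), and had −0.06 ± 0.49 with DMSO, which was not called. The phosphoglucomutase PGM2 had −0.16 ± 0.72 with apilimod and −0.06 ± 0.56 with DMSO. PGM5 had 0.15 ± 0.48 with apilimod and −0.08 ± 0.71 with DMSO, and PGM2L1 had 0.03 ± 1.07 and 0.15 ± 0.63, none of them called. Among 7 lysosomal enzymes that free GlcNAc and related sugars from glycans, NAGLU was called lower with apilimod, at −0.58 ± 0.74 (SD over 10 guides, exact rank-sum test, adjusted p = 0.0122), against −0.21 ± 0.78 with DMSO, which was not called. Other lysosomal genes at the ends of the list were HEXA, with −0.29 ± 0.72 and −0.23 ± 0.58, HGSNAT, with −0.12 ± 0.36 and 0.30 ± 0.39, and MANBA, with 0.17 ± 0.49 and 0.11 ± 0.54, in the order apilimod and DMSO. None of the 7 was called with DMSO or in apilimod against DMSO.

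The genes with the pattern nearest to PGM3, by the distance between their pairs of scores, were ATP6AP2 (−2.05 with apilimod and −1.61 with DMSO), DAD1 (−2.18 and −1.52) and NDUFAB1 (−2.09 and −1.67), and 48 genes lay within 0.5. Nearest to GFPT1 were PLCH2 (−1.33 and −0.63) and LIPT1 (−1.37 and −0.65), with 179 genes within 0.5. Likeness over 2 arms that share an initial population is weak, and the distances are given as a description.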

How the data were processed

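Guides were counted in 3 libraries, 1 for each population. The authors deposited raw counts per guide, and the submitters' processing notes name bcl2fastq, cutadapt (version 4.1), Bowtie2 (2.4.5) and MAGeCK (0.5.9.5). The deposited counts of the library files and of the table of the whole series were the same for every guide. Guides carried no molecular identifiers, and their positions within genes are not given in the sources used here. The counts were read with Python 3.11.15, pandas 2.3.3, NumPy 2.4.6 and SciPy 1.17.1. Each was given a pseudocount of 1 and divided by its library total. Guides with under 100 initial counts (1630 of 30197) and genes with under 6 usable guides were left out. Genes were tested by an exact 2-sided rank-sum test of their guides against 487 of 499 control guides, with Benjamini-Hochberg adjustment over 2969 genes. The scoring was checked on simulated counts in which unchanged guides followed the control guides. That check had no scaling of the arms, so it did not cover the scaled comparison of apilimod against DMSO. For apilimod against DMSO the test used the scaled differences of the guides, while the printed log2 ratios were unscaled. Guides of 1 gene share a target and a culture, so p-values cover the spread of guides in these libraries. Gene positions came from RefSeq, on GRCh38.p14.

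The members, lists and tests were chosen with earlier results of these data known. Named genes were all pathway genes, the 2 lowest and the highest of each list in each arm (every gene in lists of under 6), and the 3 genes nearest in pattern to the 2 members with the lowest mean score; some genes that this rule takes are not reported here. Alternatives changed the minimum count or number of guides, the pseudocount, library scaling, the control guides, the summary over guides, the guide farthest from the median, the table read, and the scaling of the arms.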

Additional observations from a re-analysis of the deposited data

How the results depend on the processing

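Ranked against all gene-targeting guides, 2 pathway genes were called with apilimod (PGM3 and GFPT1, against 4) and 1 with DMSO (PGM3, against 3), and over all genes 307 with apilimod (against 869), 272 with DMSO (against 585) and 7 in apilimod against DMSO (against 23). A minimum of 300 initial counts gave 5 pathway genes called with DMSO. Without scaling of the arms 1 pathway gene, GFPT1, was called in apilimod against DMSO, and 37 genes over all, 36 lower and 1 higher, against 17 lower and 6 higher with it. PGM3 in both arms and GFPT1 with apilimod kept their calls and directions in all 11 alternatives. Several of these alternatives could not change such a call. The table of the whole series held the same counts, and library scaling cancelled when the control median was subtracted. The test did not use the summary over guides, and a lower minimum number of guides left these genes' guides the same.

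Scores near 0 changed sign without being called. With apilimod GFPT2 was at −0.036 (minimum of 300) and UAP1 at 0.075 (all gene-targeting guides). For apilimod against DMSO, the z of GFPT2 was −0.002 (minimum of 300), −0.386 (median over guides) and −0.008 (respiratory complex I genes set to −1). That of GNPNAT1 was 1.068 (median), of UAP1 −0.576 (minimum of 300) and −0.593 (without the farthest guide), and of GNE 0.192 (minimum of 300) and 0.126 (median). NAGK had −0.099 (minimum of 300), −0.139 (pseudocount of 10), −0.056 (all gene-targeting guides), −0.487 (median), −0.053 (without the farthest guide) and −0.301 (no scaling). The causes were not tested.

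No paired analysis was possible because each group had 1 library. No library was left out for the same reason, and no value here measures the spread between cultures. Depth also limits precision: 5 of the 70 guides had under 100 initial counts and were left out.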
